A study of Mus musculus with 48 samples.

Results

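The 6 fatty acid elongase genes Elovl1, Elovl2, Elovl3, Elovl5, Elovl6 and Elovl7 were taken from the counts of 55416 genes by the Ensembl identifier of each mouse symbol, and all 6 passed the filter on low counts, Elovl7 only through the DN:HOM livers, where it is high. The RNA came from the livers of 48 mice, 8 of each genotype in each of 2 studies, and all had eaten a western diet for 8 weeks, from about 8 to 16 weeks of age. In the first study the mice carried no, 1 or 2 copies of a knock-in allele of LXRα, the W441R mutation, which acts as a dominant negative (DN:WT, DN:HET and DN:HOM). In the second study, run at another site, they carried no, 1 or 2 copies of a knockout allele of the same receptor (KO:WT, KO:HET and KO:HOM). Both alleles were in the germ line and therefore in every cell type. In both studies all 3 genotypes came from crosses of heterozygotes on a C57BL/6 background. The knock-in line came from a single CRISPR founder, and the knockout line was backcrossed from a mixed Sv129/C57Bl/6 background. Livers of all 6 groups expressed Y-linked genes. Each liver was 1 mouse and 1 library, and no tissue was pooled.

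Elongases sit in the membrane of the endoplasmic reticulum and carry out the condensing step of a cycle that lengthens a fatty acid by a malonyl-CoA unit per turn. A ketoreductase (Hsd17b12), a dehydratase (the Hacd proteins) and an enoyl reductase (Tecr) complete each turn, and the elongase sets which fatty acids enter. Elovl6 lengthens palmitate to stearate, Elovl5 works on polyunsaturated fatty acids and palmitoleate, and Elovl2 on longer polyunsaturated fatty acids on the way to docosahexaenoate. Elovl3 makes very long saturated and monounsaturated fatty acids in skin, brown fat and liver, Elovl1 makes the very long saturated chains of sphingolipids, and Elovl7 takes long saturated acyl-CoAs. LXRα is the main liver X receptor of hepatocytes and switches on Srebf1, whose product SREBP-1c drives genes of fatty acid synthesis in liver.

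In the GRCm39 annotation all 6 are protein-coding genes. Elovl1 (ENSMUSG00000006390) lies on the forward strand at chr4:118284346-118290150, Elovl2 (ENSMUSG00000021364) on the reverse strand at chr13:41335857-41374112 and Elovl3 (ENSMUSG00000038754) on the forward strand at chr19:46119917-46124133. Elovl5 (ENSMUSG00000032349) lies at chr9:77818113-77891802, Elovl6 (ENSMUSG00000041220) at chr3:129326004-129432144 and Elovl7 (ENSMUSG00000021696) at chr13:108350937-108423639, all on the forward strand. Exons of Elovl1 share 53 bases with the opposite-strand gene Cdc20, those of Elovl3 share 415 bases with Pitx3 and those of Elovl6 share 34 bases with Gm35986. The counts were strand-specific, and every call on Elovl1, Elovl3 and Elovl6 given here held when both strands were counted together.

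The promoters of 3 genes that fell together in homozygous livers (Elovl2, Elovl5 and Elovl6) and of Elovl7, which rose, are printed so that the motifs they hold can be read beside the direction of change. They are RefSeq windows of 300 bases on GRCm38.p6 around a start site, written in the direction of transcription. They lie at chr13:41220354-41220653 on the reverse strand for Elovl2 (the first of 2 RefSeq starts), and on the forward strand at chr9:77917115-77917414 for Elovl5, chr3:129532136-129532435 for Elovl6 and chr13:108214154-108214453 for Elovl7. RefSeq windows were found for 5 of the 6 genes, and Elovl3 was not matched. Capitals mark the E-box with the letters CACGTG, the box that is named for its letters CCAAT or the half-site of nuclear receptors with the letters AGGTCA, each searched on both strands and shown as read on the printed strand.
Elovl2: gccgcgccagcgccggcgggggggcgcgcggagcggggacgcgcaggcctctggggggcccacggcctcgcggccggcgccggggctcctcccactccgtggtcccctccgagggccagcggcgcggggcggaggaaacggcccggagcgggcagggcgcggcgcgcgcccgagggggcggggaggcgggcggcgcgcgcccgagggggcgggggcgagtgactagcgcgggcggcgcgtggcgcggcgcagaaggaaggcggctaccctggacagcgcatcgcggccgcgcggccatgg
Elovl5: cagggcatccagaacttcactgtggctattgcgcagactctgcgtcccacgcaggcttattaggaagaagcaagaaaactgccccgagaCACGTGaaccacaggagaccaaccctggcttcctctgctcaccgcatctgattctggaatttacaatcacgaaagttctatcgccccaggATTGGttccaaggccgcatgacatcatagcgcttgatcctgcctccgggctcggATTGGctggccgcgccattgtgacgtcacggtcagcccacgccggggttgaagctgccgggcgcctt
Elovl6: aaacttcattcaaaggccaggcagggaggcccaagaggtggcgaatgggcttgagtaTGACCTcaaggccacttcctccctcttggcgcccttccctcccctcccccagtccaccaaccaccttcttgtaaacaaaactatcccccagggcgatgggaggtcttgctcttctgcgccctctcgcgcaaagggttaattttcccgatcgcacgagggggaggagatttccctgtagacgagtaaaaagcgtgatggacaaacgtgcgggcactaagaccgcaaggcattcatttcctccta
Elovl7: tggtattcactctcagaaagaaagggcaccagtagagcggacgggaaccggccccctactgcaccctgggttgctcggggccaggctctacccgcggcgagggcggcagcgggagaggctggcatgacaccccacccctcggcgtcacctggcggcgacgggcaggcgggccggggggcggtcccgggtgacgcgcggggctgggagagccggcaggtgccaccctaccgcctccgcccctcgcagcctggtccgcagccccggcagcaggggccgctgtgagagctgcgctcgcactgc

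The Elovl5 window held an E-box at bases 90 to 95 and 2 reverse-strand CCAAT boxes at bases 180 to 184 and 234 to 238. The Elovl6 window held 1 reverse-strand AGGTCA at bases 58 to 63, and the Elovl2 and Elovl7 windows held none of the marked motifs. The 2 Elovl1 windows, not printed, held a CCAAT box in one and a reverse-strand AGGTCA in the other, so these motifs were not limited to the genes that fell. Of all 32851 RefSeq windows of this length, 7.15% held CACGTG, 37.4% CCAAT and 16.3% AGGTCA. A sterol response element of the letters TCACNCCAC (1.24% of all windows) and 2 AGGTCA in the same direction 4 bases apart (0.0152%, these also count as AGGTCA) were found in none of the members' windows. The GC box GGGCGG, held by 35.7% of windows and not capitalised, was found 5 times in the Elovl2 window, 3 times in the Elovl7 window and 7 times in the 2 Elovl1 windows. The GC content was 84.7% for Elovl2, 57.7% for Elovl5, 55.7% for Elovl6 and 74.0% for Elovl7.

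Reads on genes numbered 5332897 to 16961379 per liver, and KO:HET animal 3 and KO:HOM animal 17 were the 2 livers under 10000000. Nr1h3, which encodes LXRα, was at 93.6 ± 8.82 CPM (reads per 1000000 reads on genes, scaled by TMM) in KO:WT, 59.2 ± 5.63 in KO:HET and 27 ± 1.99 in KO:HOM (SD, n = 8 each). All 12 hepatocyte markers were detected in every group, and their summed level lay between 40882 and 115326 CPM. The library labelled DN:WT animal 10 and the library labelled DN:HOM animal 12 went against their labels. Animal 10 had 402 CPM of Elovl5, 26.3 of Elovl6 and 15.9 of Elovl7, and animal 12 had 2041, 202 and 0.42 CPM, each far from the rest of its group and on the side of the other genotype. Both were absent from the study's source values for 7 genes, which matched the other 22 DN livers, and the values that follow are from the other 46 livers. The paper's legend for its RNA-seq heatmap counts full groups, and whether these livers are absent from other source values was not checked. The elongase levels that set them apart are among the levels compared below, so leaving them out favours separation of DN:WT and DN:HOM. Values from all 48 are given beside several of these results. No liver was moved to another group.

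Compared per length of exon, Elovl5, Elovl2 and Elovl3 made up most of the elongase transcript in DN:WT livers. Their levels were 294 ± 70.9 CPM per kb for Elovl5, 164 ± 26.5 for Elovl2 and 139 ± 70.8 for Elovl3 (SD, n = 7). Elovl6 was at 26.5 ± 11.3 CPM per kb, Elovl1 at 6.55 ± 0.58 and Elovl7 at 0.0381 ± 0.0251. In KO:WT livers Elovl5 was at 175 ± 128 and Elovl2 at 165 ± 37.9 CPM per kb (SD, n = 8), or 314 ± 229 and 170 ± 39 with the longest transcript as length, and Elovl3 was at 44.9 ± 17.7. Elovl4, which extends very long fatty acids in retina and skin, had at most 2 reads in any of the 46 livers.

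**Figure D1:**
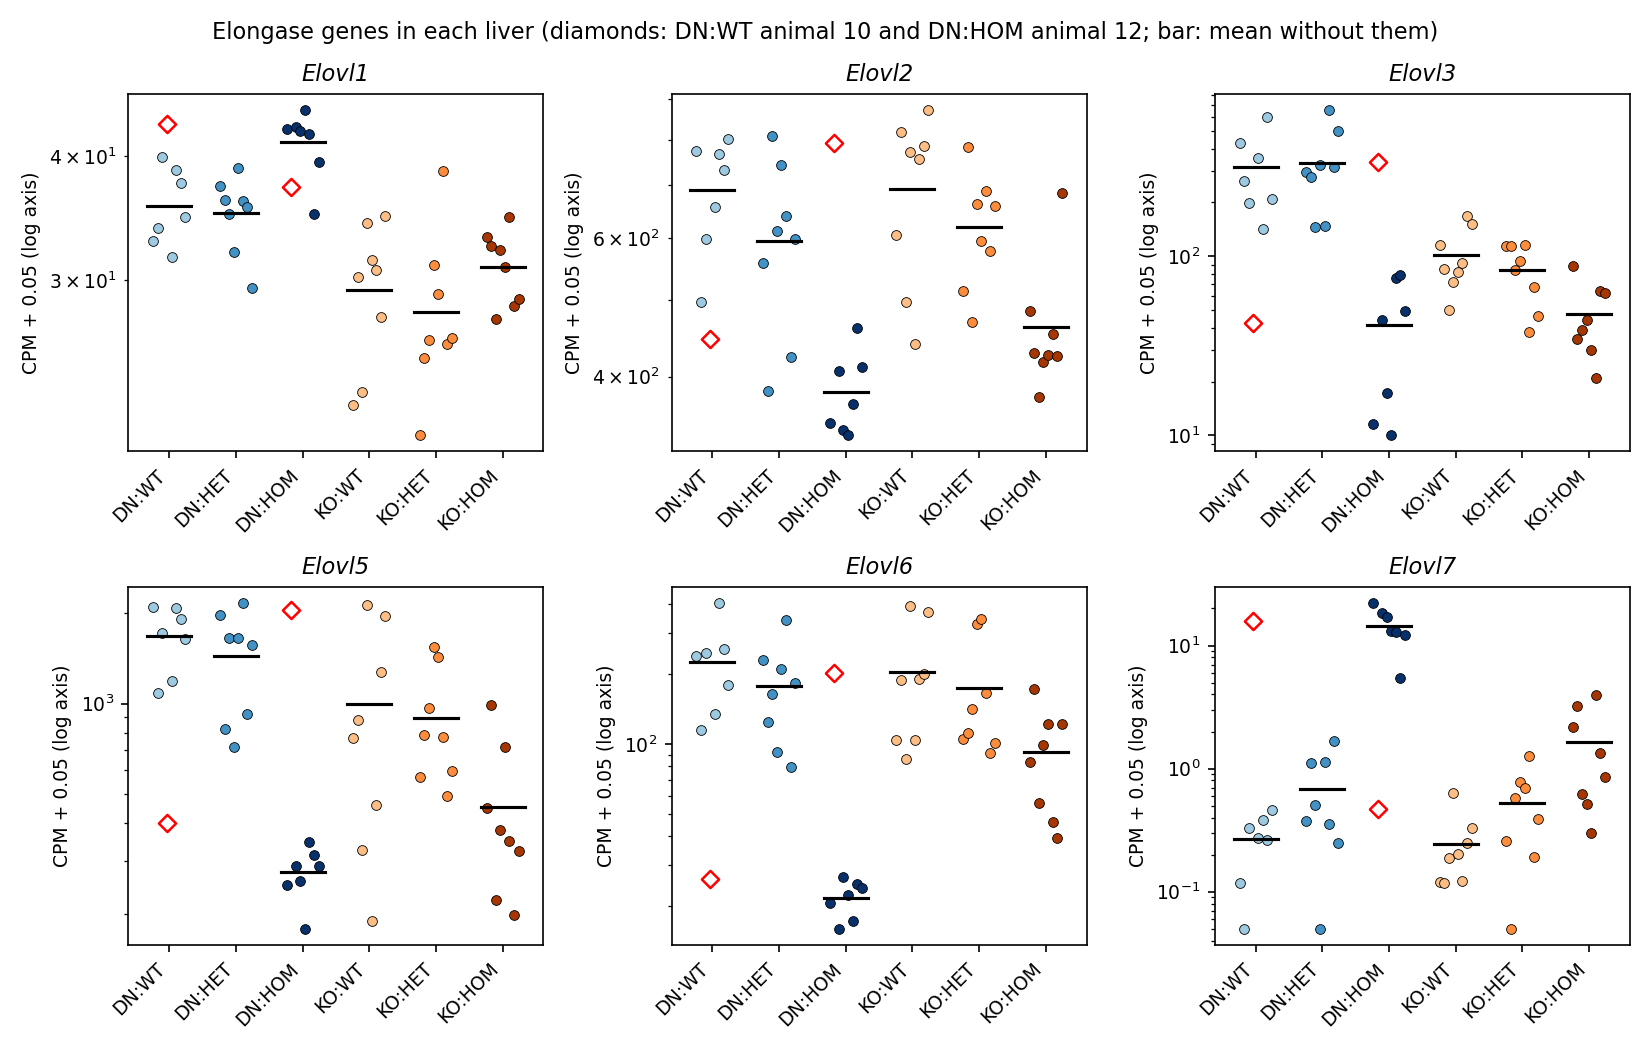
Level of each elongase gene in each of the 48 livers, as CPM + 0.05 on a log axis, by genotype group; points are livers, bars are group means without the 2 diamonds. DN:HOM livers sit apart from DN:WT livers for 5 of the 6 genes, and the diamonds, DN:WT animal 10 and DN:HOM animal 12, sit with the other genotype.

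The first question was what homozygosity for the dominant-negative receptor did to each elongase. Elovl6, Elovl3, Elovl5 and Elovl2 fell and Elovl7 and Elovl1 rose, so that 6 of 6 genes passed the test (edgeR quasi-likelihood, Benjamini-Hochberg adjusted over all genes). This has to be read against a background of 59.1% of the 15711 genes tested (29.1% higher and 30% lower). The median of the 6 log2 fold changes was -1.71, beside -0.01 over all genes. Without TMM scaling the median of all genes shifts by 0.43 on the log2 scale and 84.2% of calls are higher, against 49.3% with it, and the direction of the 6 elongases was the same. The 4 genes that fell and Elovl7 had groups that did not overlap. Over all genes tested, 15.8% were lower and 17.8% higher in DN:HOM without overlap.

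Elovl6, the palmitate elongase, lay between 115 and 403 CPM in DN:WT livers with a median of 240 CPM. In DN:HOM livers it lay between 16 and 26.8 CPM with a median of 22.4 CPM. The highest DN:HOM liver was thus below the lowest DN:WT liver. The means were 225 ± 96.3 (SD, n = 7) and 21.7 ± 3.98 CPM (n = 7), and the log2 fold change was -3.36 ± 0.38 (SE, adjusted p = 5.0e-10).

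Elovl3 ranged from 142 to 602 CPM in DN:WT (median 265) and from 9.99 to 78.6 CPM in DN:HOM (median 44.3). It was the most variable elongase of the DN:HOM livers, in which animals 9, 18 and 19 lay at 9.99 to 17.3 CPM and the other 4 livers at 44.3 to 78.6. The log2 fold change was -2.92 ± 0.41 (SE, adjusted p = 7.5e-08), a ratio of means of 7.66.

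Elovl5, which had the highest level per kb in DN:WT livers, ranged from 1081 to 2084 CPM in DN:WT (median 1709) and from 179 to 346 CPM in DN:HOM (median 289). All 7 DN:HOM livers were below all DN:WT livers, and the mean fell from 1670 ± 402 to 275 ± 53.4 CPM (SD, n = 7 each). The log2 fold change was -2.59 ± 0.38 (SE, adjusted p = 1.8e-07).

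Elovl2, which feeds docosahexaenoate synthesis, changed less. It ranged from 497 to 802 CPM in DN:WT (median 733) and from 337 to 461 CPM in DN:HOM (median 369), again with no overlap. The log2 fold change was -0.84 ± 0.15 (SE, adjusted p = 5.2e-06), a ratio of means of 1.8. Without TMM scaling the log2 fold change was -0.41 (adjusted p = 0.0081). With Elovl5 lower by more than Elovl2, Elovl2 was at 91.1 ± 10.9 CPM per kb of exon in DN:HOM livers and Elovl5 at 48.5 ± 9.41 (SD, n = 7), a gap that depends on the length used (93.9 ± 11.2 and 86.8 ± 16.9 with the longest transcript).

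Elovl7 went the other way. It was at 0 to 0.409 CPM in DN:WT livers (median 0.222, at most 6 reads per liver) and at 5.43 to 22 CPM in DN:HOM livers (median 13.1, 110 to 486 reads). Every DN:HOM liver was above every DN:WT liver. The log2 fold change was 6.00 ± 0.57 (SE, adjusted p = 4.7e-12), a ratio of means of 66.0 that rests on few reads in DN:WT. Elovl7 was testable through the same DN:HOM livers, so its call adds nothing to the count of 6, and without the low-count filter its log2 fold change was 6.00 (adjusted p = 5.3e-13). With all 48 livers the log2 fold changes were smaller, at 2.47 for Elovl7, -2.18 for Elovl6, -1.85 for Elovl3, -1.61 for Elovl5 and -0.61 for Elovl2, and all 5 passed (adjusted p = 0.0044, 0.00038, 0.0019, 0.0032 and 0.0026).

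Elovl1 ranged from 31.6 to 39.9 CPM in DN:WT (median 34.7) and from 34.9 to 44.5 CPM in DN:HOM (median 42.4), and the groups overlapped. The log2 fold change was 0.23 ± 0.09 (SE, adjusted p = 0.031) and depended on the scaling, at 0.31 with upper-quartile scaling and 0.66 with library size alone (adjusted p = 0.0035 and 1.7e-07). The call ended with all 48 livers (adjusted p = 0.14) and without the low-count filter (adjusted p = 0.051). Cdc20, the cell-cycle gene whose exons overlap it on the opposite strand, rose from 1 ± 0.32 to 10.9 ± 3.30 CPM (SD, n = 7 each). With both strands counted together the log2 fold change of Elovl1 was 0.22 (adjusted p = 0.043).

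**Figure D2:**
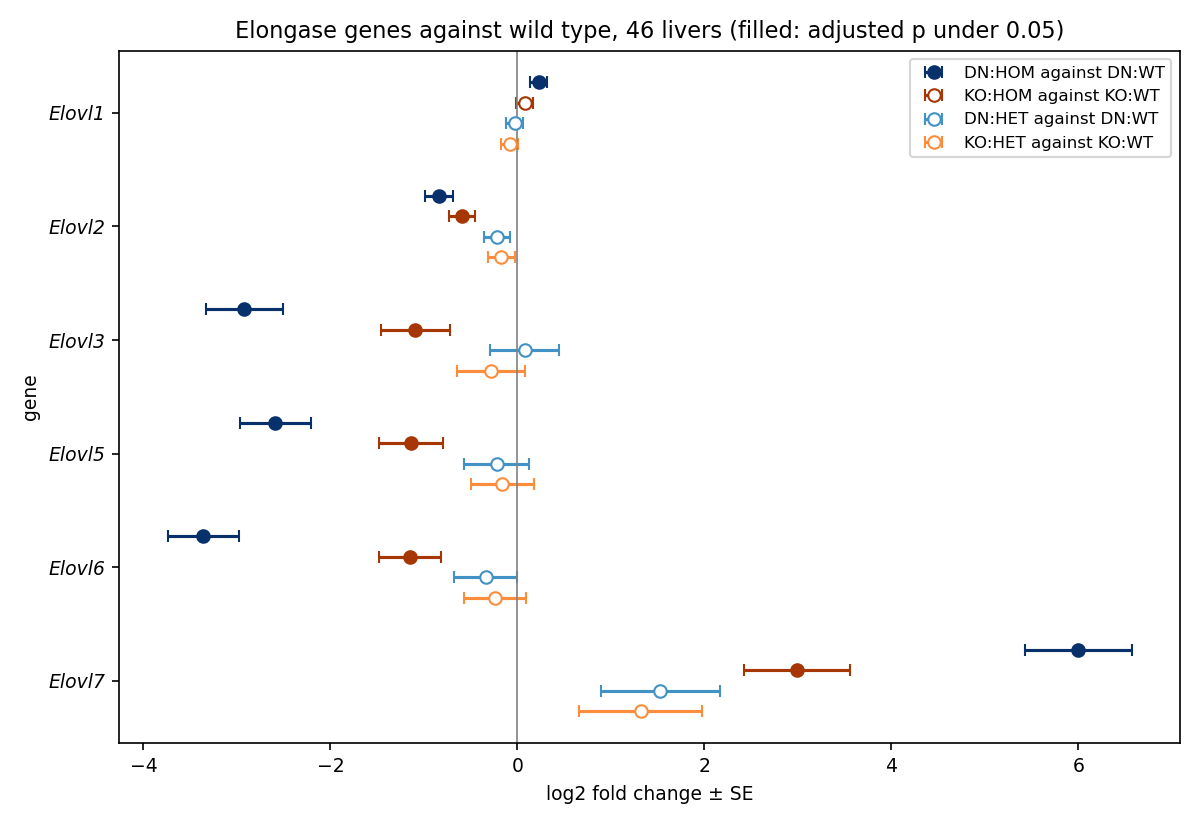
Log2 fold change of each elongase gene against wild type of the same study with its SE, in homozygous (dark) and heterozygous (light) livers of the DN study (blue) and the KO study (orange); filled points have an adjusted p under 0.05. The homozygous changes of Elovl3, Elovl5, Elovl6 and Elovl7 are larger in DN than in KO in these 46 livers, and no heterozygous point is filled.

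In the knockout study the same question was asked of mice that lack the receptor. Elovl6, Elovl5, Elovl3 and Elovl2 fell and Elovl7 rose in KO:HOM against KO:WT, 5 of 6 genes, beside 19.4% of all genes tested (11.5% higher and 7.87% lower). Elovl7 was in this test only because the DN:HOM livers carried it past the filter, and with the KO study alone or the compared groups alone it was not tested and 3 elongases passed, the Elovl5 call having ended (adjusted p = 0.060 and 0.092). The median of the 6 log2 fold changes was -0.84, beside -0.02 over all genes. The groups overlapped for all 6 genes. Without TMM scaling the median of all genes shifts by 0.12 and 85.7% of calls are higher, against 59.4% with it.

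Elovl6 lay between 86.4 and 394 CPM in KO:WT (median 189) and between 39.2 and 172 CPM in KO:HOM (median 91.0), with a log2 fold change of -1.15 ± 0.33 (SE, adjusted p = 0.010). Elovl5 lay between 190 and 2121 CPM in KO:WT (median 828) and between 199 and 988 CPM in KO:HOM (median 364), with a log2 fold change of -1.14 ± 0.34 (adjusted p = 0.014). The lowest KO:WT liver for Elovl5 was below every KO:HOM liver, and the whole KO:HOM range lay within that of KO:WT.

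Elovl3 lay between 50 and 168 CPM in KO:WT (median 88.4) and between 20.8 and 88.4 CPM in KO:HOM (median 41.3), with a log2 fold change of -1.09 ± 0.37 (SE, adjusted p = 0.030). Elovl2 lay between 440 and 873 CPM in KO:WT (median 764) and between 377 and 685 CPM in KO:HOM (median 427), with a log2 fold change of -0.59 ± 0.14 (adjusted p = 0.0017). In KO:HOM, 7 livers were at 484 CPM of Elovl2 or below and animal 30 stood at 685 CPM. Elovl7 rose from 0.0673 to 0.586 CPM in KO:WT (median 0.146, 1 to 9 reads) to 0.252 to 3.92 CPM in KO:HOM (median 1.05, 3 to 67 reads), with a log2 fold change of 2.99 ± 0.57 (adjusted p = 0.00017) that rests on few reads and, without the low-count filter, was 2.98 (adjusted p = 0.00014). Elovl1 was at 29.3 ± 4.65 CPM in KO:WT and 30.9 ± 2.61 in KO:HOM (SD, n = 8 each), a log2 difference of 0.08 with an interval of -0.10 to 0.25 (adjusted p = 0.59).

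The calls on Elovl3, Elovl5 and Elovl6 in the knockout did not hold under every alternative. With all 48 livers (12.9% of all genes called) the adjusted p was 0.13 for Elovl3, 0.080 for Elovl5 and 0.096 for Elovl6, at nearly the same fold changes. The Elovl5 call also ended with each study fitted alone (adjusted p = 0.060) and with the compared groups alone (0.092). The Elovl3 call ended without the 2 shallow livers (adjusted p = 0.052) and without TMM scaling (0.054).

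Next, the homozygous effects of the 2 alleles were compared with each other. The log2 fold change of Elovl6 in DN minus that in KO was -2.21 ± 0.49 (SE, adjusted p = 0.00038), and that of Elovl3 differed by -1.83 ± 0.54 (adjusted p = 0.0064). For Elovl5 the difference was -1.45 ± 0.50 (adjusted p = 0.020), and the rise of Elovl7 was larger in DN by 3.01 ± 0.92 (adjusted p = 0.0093). These were 4 of 6 genes, or 3 of 5 without Elovl7, which was testable only through DN:HOM, beside 34.7% of all genes tested. For Elovl2 the difference was -0.25 with an interval of -0.66 to 0.16, and for Elovl1 it was 0.15 with an interval of -0.11 to 0.41, and neither passed the test (adjusted p = 0.37 and 0.38). With all 48 livers, 0 of the 6 passed by edgeR, beside 10.5% of all genes. The differences were then -1.04 for Elovl6, -0.77 for Elovl3, -0.47 for Elovl5 and -0.51 for Elovl7 (adjusted p = 0.30, 0.47, 0.65 and 0.81). Without TMM scaling the call on Elovl5 ended (-1.15, adjusted p = 0.050) and Elovl1 passed (0.46, adjusted p = 0.0052). Allele, site and study change together here and cannot be told apart.

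With 1 altered copy, no elongase passed the test in either study. The edgeR count was 0 of 6 in DN:HET against DN:WT, beside 2.30% of all genes tested, with 1 of 6 at an unadjusted p under 0.05 and 0 by DESeq2. It was 0 of 6 in KO:HET against KO:WT, beside 0.0191% of all genes, with 0 of 6 at an unadjusted p under 0.05 and 0 by DESeq2. The intervals of the log2 difference for Elovl6 were -1.02 to 0.34 in DN and -0.90 to 0.41 in KO, and those for Elovl5 were -0.93 to 0.48 and -0.85 to 0.52. The heterozygous groups therefore could not be told from wild type at this spread, and changes of the size seen in DN:HOM lay outside these intervals. DN:HET livers spread widely, with Elovl5 at 716 to 925 CPM in animals 4, 14 and 22 and at 1570 to 2152 CPM in the other 5.

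The gene with the unadjusted p under 0.05 in DN:HET was Elovl7. It was at 0 to 1.64 CPM (median 0.387, at most 28 reads), with animals 4, 16 and 22 at 1.06 to 1.64 CPM and the other 5 at 0 to 0.451. The same 3 livers had the highest summed cholangiocyte markers of the group, at 174, 86.4 and 226 CPM beside 34.8 to 60.7 in the other 5, in a sum of which Spp1 alone averaged 79.1 CPM. Animals 4 and 22 were also highest in summed macrophage markers (1341 and 1422 CPM, the other 6 at 224 to 631) and T cell markers (25.1 and 27.4 CPM, the other 6 at 2.97 to 12.3). In DN:HET against DN:WT 5 of 13 macrophage and 5 of 6 T cell markers rose by edgeR, beside 2.30% of all genes called, and with all 48 livers 0 and 2 did. The part of these cells in the Elovl7 level was not tested here either. The log2 difference from DN:WT was 1.53 ± 0.64 (SE, adjusted p = 0.25), and it was -1.80 with all 48 livers. In KO:HET it was at 0 to 1.21 CPM (median 0.430), a log2 difference of 1.32 ± 0.66 from KO:WT (adjusted p = 0.80).

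Homozygous livers were also set against heterozygous livers of their own study. In DN all 6 genes passed the test, beside 53.9% of all genes tested, from -3.02 ± 0.37 on the log2 scale for Elovl6 to 4.47 ± 0.47 for Elovl7 (SE). Elovl7 was testable only through these same DN:HOM livers, so its call adds nothing to the count of 6. Without TMM scaling the Elovl2 call ended (log2 fold change -0.24, adjusted p = 0.11). In KO, Elovl2 (-0.42 ± 0.14, adjusted p = 0.042) and Elovl7 (1.67 ± 0.50, adjusted p = 0.025) passed, 2 of 6 beside 10.6% of all genes, and both calls ended with all 48 livers (adjusted p = 0.13 and 0.27). Here too Elovl7 was tested only through DN:HOM, and without the filter its adjusted p was 0.037. The Elovl2 call held in 5 of 10 alternatives, and without the 2 shallow livers the difference was -0.32 (adjusted p = 0.18). DESeq2 called 3 elongases, Elovl5 being the third (-0.98, adjusted p = 0.042, against 0.058 by edgeR).

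The groups were also put in order of their mean level. For Elovl6 the means ran DN:WT, KO:WT, DN:HET, KO:HET, KO:HOM and DN:HOM. The first 4 steps were smaller than the larger SD of the groups on either side, and DN:HOM lay below KO:HOM with no overlap (16 to 26.8 against 39.2 to 172 CPM). For Elovl7 DN:HOM was highest, above KO:HOM with no overlap (5.43 to 22 against 0.252 to 3.92 CPM), and KO:HOM, DN:HET, KO:HET, DN:WT and KO:WT followed within their spread. For Elovl5 the means ran DN:WT, DN:HET, KO:WT, KO:HET, KO:HOM and DN:HOM, and only the step from KO:HET (895 CPM) to KO:HOM (454 CPM) exceeded the larger SD, 394 CPM. For Elovl2 no step between neighbours did, although the range ran from 693 CPM in KO:WT to 382 CPM in DN:HOM. For Elovl3 the means ran DN:HET, DN:WT, KO:WT, KO:HET, KO:HOM and DN:HOM, and the steps from DN:WT to KO:WT (213 CPM, larger SD 160) and from KO:HET to KO:HOM (36.2 CPM, larger SD 30.9) exceeded the SD, with ranges that overlapped. For Elovl1 the 3 DN groups (35.0 to 41.3 CPM) had higher means than the 3 KO groups (27.8 to 30.9 CPM), and the steps from DN:HOM to DN:WT (5.70 CPM) and from DN:HET to KO:HOM (4.09 CPM) exceeded the larger SD.

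Elovl3 was the elongase with a marked difference between the wild-type groups of the 2 studies. It ranged from 142 to 602 CPM in DN:WT and from 50 to 168 CPM in KO:WT, which overlap, with a log2 difference of -1.62 ± 0.38 for KO:WT against DN:WT (SE, adjusted p = 0.0028). Elovl1 also passed (-0.27 ± 0.09, adjusted p = 0.039), 2 of 6 genes beside 12% of all genes tested. The Elovl1 call ended without the low-count filter (adjusted p = 0.062) and with the compared groups alone (adjusted p = 0.073). DN:HET livers were like DN:WT for Elovl3 (333 ± 173 CPM, n = 8) and KO:HET livers like KO:WT (84.1 ± 30.9 CPM, n = 8). In mouse liver Elovl3 is known to follow the day-night cycle, and the clock genes also differed between the wild-type groups, with 7 of 13 higher and 3 lower in KO:WT. Per1 was at 45.3 to 92.7 CPM in KO:WT and 5.63 to 34.7 CPM in DN:WT, and the mean of Bmal1 was 2.27 ± 0.996 and 10.7 ± 8.28 CPM (SD, n = 8 and 7). The part of time of day in the Elovl3 level was not tested.

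Within each study, 5 of 13 clock genes were lower and 0 higher in DN:HOM against DN:WT (3 lower with all 48 livers), beside 30% of all genes lower, with Per2 at -0.87 and Cry1 at -1.17 on the log2 scale (adjusted p = 0.00035 and 0.00030), and a median of -0.57. In KO:HOM against KO:WT 1 of 13 passed, beside 7.87% of all genes lower, Nr1d1 (-0.70, adjusted p = 0.032, 0.054 with all 48 livers), with a median of -0.20 over the list.

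The level of Elovl7 was next set beside that of cell type markers, since the homozygous livers of both studies differed in these. In bulk tissue, fewer cells of a type and less RNA per cell cannot be told apart. All 6 cholangiocyte markers (bile duct cells) rose in DN:HOM, beside 29.1% of all genes tested, with a median log2 fold change of 3.79. With all 48 livers that median was 2.21. The summed level of the markers was 30.3 to 70.8 CPM in DN:WT and 723 to 1070 CPM in DN:HOM. Spp1 alone was at 857 ± 115 CPM in DN:HOM (SD, n = 7). DN:WT animal 10 had 1162 CPM of these markers and 15.9 CPM of Elovl7, and DN:HOM animal 12 had 43.4 CPM of them and 0.420 CPM of Elovl7. Among DN:HOM livers animal 9 was highest in both (22 CPM of Elovl7 and 1070 CPM of the markers) and animal 33 lowest in both (5.43 and 723 CPM). Between these the order was not shared, with animal 15 at 18.2 and 876 CPM and animal 19 at 13.1 and 1009 CPM.

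In KO:HOM, 1 of the 6 cholangiocyte markers rose, beside 11.5% of all genes tested. This was Spp1, which macrophages also make, from 33.5 ± 23.6 to 89.7 ± 47.8 CPM (log2 fold change 1.42, adjusted p = 0.0047, 0.14 with all 48 livers). The median of the 6 was 0.17. None of the others passed in KO:HOM, among them Krt19, Krt7 and Epcam with log2 differences of 0.06, 0.24 and 0.11 (adjusted p = 0.94, 0.68 and 0.86). The KO:HOM livers with the highest Elovl7, animals 26, 11 and 8 at 3.92, 3.18 and 2.14 CPM, also had the highest summed cholangiocyte markers, at 183, 128 and 147 CPM, in a sum of which Spp1 alone averaged 89.7 CPM. The same 3 livers had the highest summed macrophage markers, at 446, 793 and 1071 CPM, beside 269 to 410 CPM in the other 5. In the other 5 livers Elovl7 was at 0.252 to 1.30 CPM and the markers were at 36.6 to 102 CPM.

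**Figure D3:**
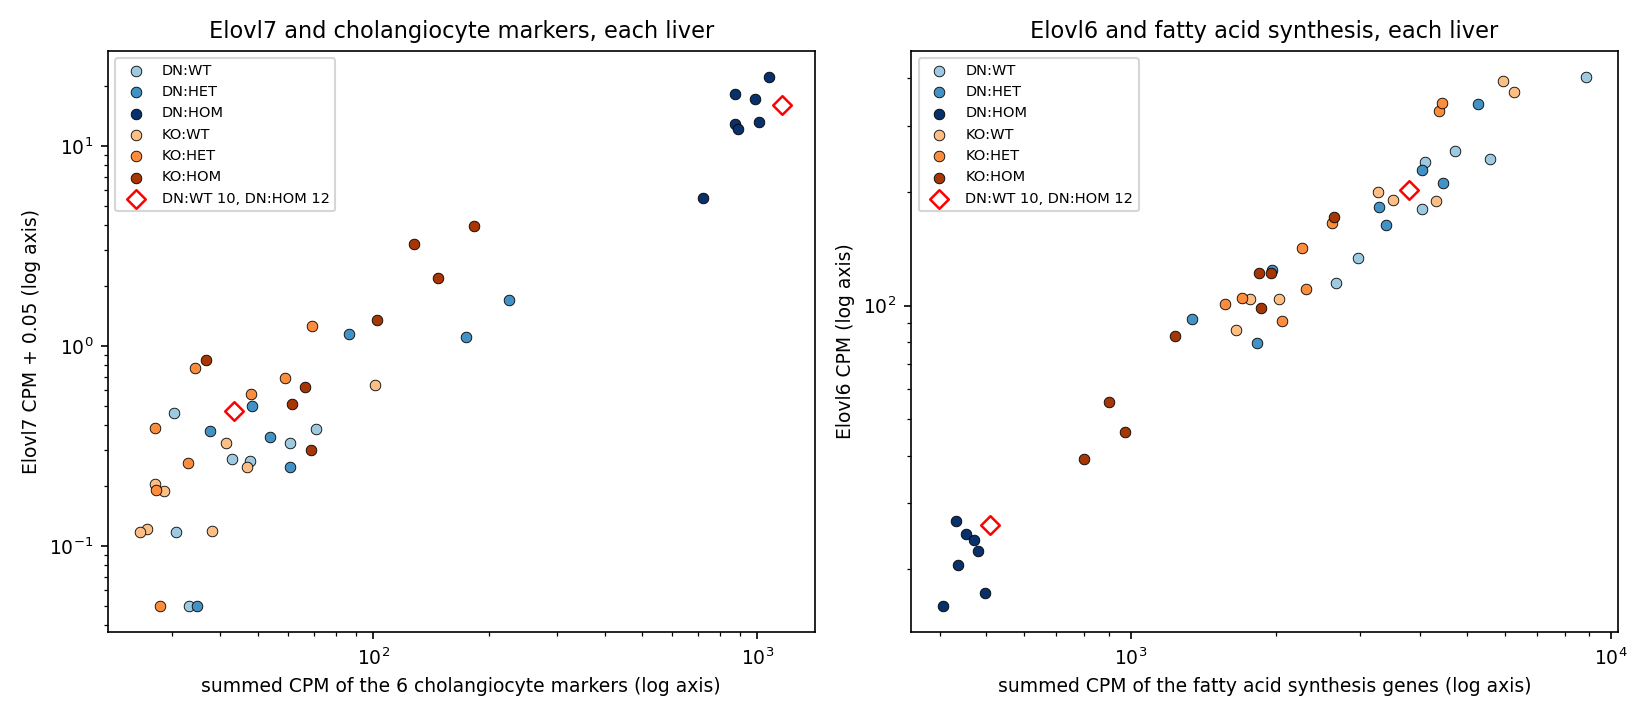
Left, Elovl7 (CPM + 0.05) against the summed CPM of 6 cholangiocyte markers; right, Elovl6 (CPM) against the summed CPM of the 10 fatty acid synthesis genes; log axes, each point 1 liver, coloured by group, red diamonds the 2 livers left out of the main values. DN:HOM livers lie at 723 to 1070 CPM of cholangiocyte markers and 407 to 496 CPM of synthesis genes, and the diamonds lie with the opposite genotype in both plots.

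Other marker lists were compared in the same livers, beside 29.1% of all genes higher and 30% lower in DN:HOM and 11.5% and 7.87% in KO:HOM. In DN:HOM 4 of 4 tested neutrophil markers rose (median log2 fold change 4.28, or 2.15 with all 48 livers). Their summed level was 1.07 to 3 CPM in DN:WT and 22 to 66.5 in DN:HOM. Also higher were 9 of 10 stellate cell markers (median 1.57) and 8 of 13 macrophage markers, while 5 of the 13 fell (median 1.03). T cell markers rose in 4 of 6 (median 1.33), and 2 of 5 B cell markers fell (median -1.0), at summed levels of at most 7.27 CPM in DN:WT and DN:HOM. Endothelial markers fell in 4 of 7 and rose in 1 (median -0.47). In KO:HOM 7 of 13 macrophage markers rose and 3 fell (median 1.64), 6 of 6 T cell markers rose (median 2.42), 6 of 10 stellate markers rose (median 0.66) and 2 of 4 neutrophil markers rose (median 1.26). There 0 of 5 B cell markers (median 0.04), 1 of 7 endothelial markers higher and 1 lower (median 0.01) passed. Fewer passed in DN:HOM with all 48 livers, with 7 macrophage markers higher, 1 T cell, 0 B cell, 3 neutrophil, 8 stellate and, for endothelium, 0 higher and 4 lower. In KO:HOM they were 6 macrophage markers higher and 2 lower, 2 stellate, 0 neutrophil and 0 cholangiocyte markers. The part of these cells in the Elovl7 level was not tested.

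The genes that fell were set beside hepatocyte markers in the same way. In DN:HOM 8 of 12 hepatocyte markers fell, beside 30% of all genes tested, with a median log2 fold change of -0.71. Alb was at 47412 CPM in DN:WT and 21257 CPM in DN:HOM (log2 fold change -1.14). In KO:HOM 7 of 12 fell, beside 7.87% of all genes, with a median of -0.36 and Alb at -0.43. Over all 48 livers 7 of 12 passed in DN:HOM and 3 of 12 in KO:HOM. The changes of Elovl6, Elovl3 and Elovl5 were further from 0 in both studies than that of any of these 12 markers, a comparison that was not tested, the largest of which were Apoa2 in DN:HOM (-1.51) and Tat in KO:HOM (-0.84). The change of Elovl2 lay within the range of the markers in both. Of the adipocyte-type markers, 3 of 4 tested fell in DN:HOM (median -4.58, or -2.31 with all 48 livers). In KO:HOM 2 of 4 fell (median -0.77, 1 of 4 with all 48 livers). Male-specific genes marked all livers as male. The 4 tested Y-linked genes were lower in DN:HOM (median -0.31), and none of them passed in KO:HOM (median -0.12).

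The summed level of the 6 elongases, per kb of exon, was 630 ± 130 CPM per kb in DN:WT (SD, n = 7), 569 ± 162 in DN:HET (n = 8) and 170 ± 29.3 in DN:HOM (n = 7). It was 415 ± 180 in KO:WT, 368 ± 91.9 in KO:HET and 228 ± 54.7 in KO:HOM (n = 8 each). In DN:WT, Elovl5 made up 46.6 ± 6.13% of this sum and Elovl2 26.4 ± 3.37%. In DN:HOM the order was turned, with Elovl2 at 54.1 ± 5.08% and Elovl5 at 28.4 ± 2.49%, and the ranges of both shares were apart between the groups. Elovl3 went from 21.8 ± 8.48% to 9.80 ± 5.90% and Elovl6 from 4.15 ± 1.49% to 1.55 ± 0.43%. Elovl7 reached 1.56 ± 0.705% in DN:HOM, as much as Elovl6. In KO:WT Elovl2 was at 43.7 ± 10.9% and Elovl5 at 37.3 ± 13.8%, and in KO:HOM they were at 49.8 ± 10.2% and 33.3 ± 12.4%, within the spread. These shares depend on the exon length used. With the longest transcript of each gene as its length, Elovl5 was at 86.8 ± 16.9 CPM per kb and Elovl2 at 93.9 ± 11.2 in DN:HOM, and the gap was smaller than either SD. In KO:HOM the order of the mean levels turned with it, from 79.9 CPM per kb of Elovl5 and 110 of Elovl2 to 143 and 114. In KO:WT and KO:HET the mean of Elovl5 was above that of Elovl2 with either length.

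**Figure D4:**
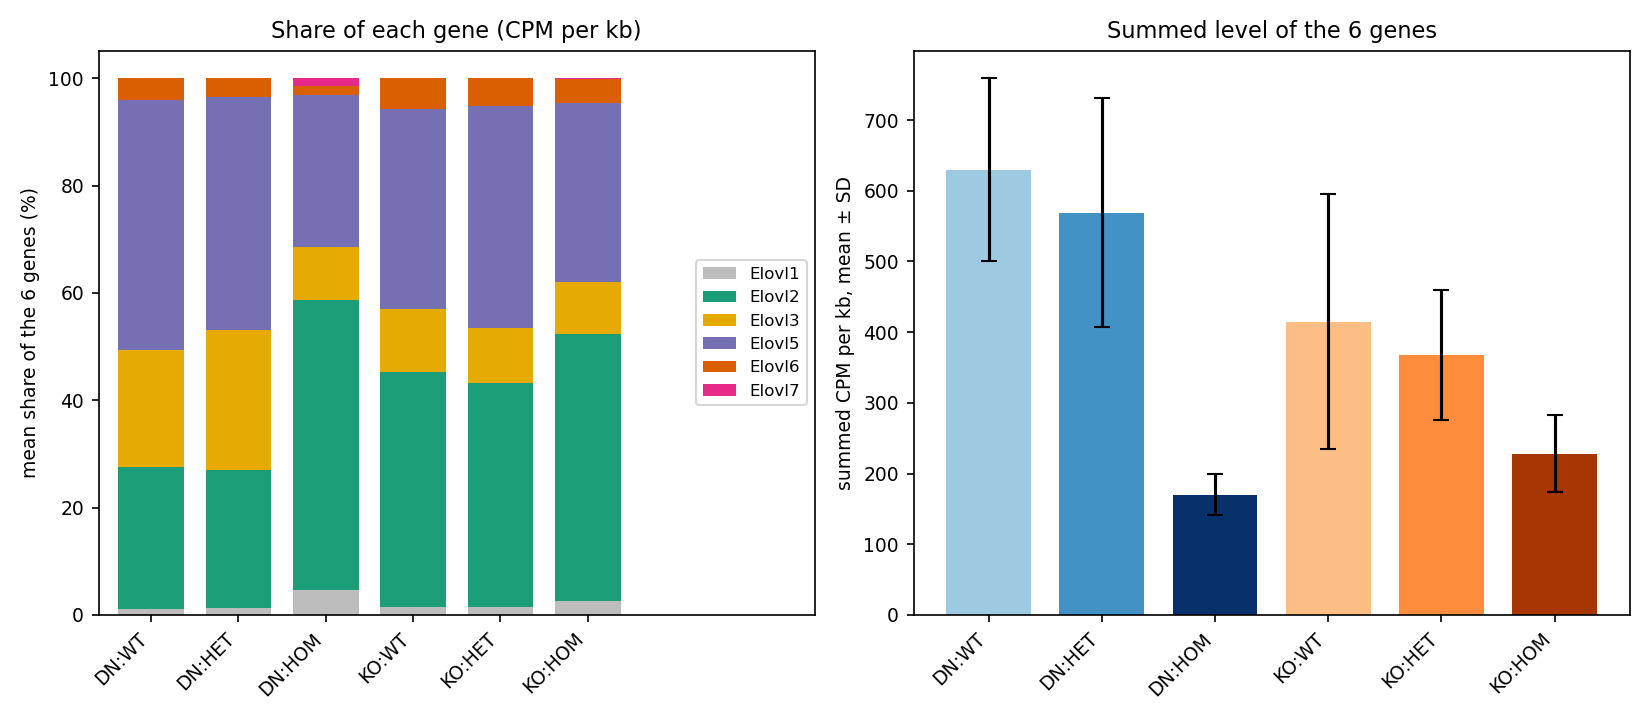
Left, mean share of each elongase in the summed level of the 6 genes (CPM per kb of exon) by group; right, that summed level with its SD. Elovl5 is the largest share in DN:WT (46.6%) and Elovl2 in DN:HOM (54.1%), and the sum is lowest in DN:HOM (170 CPM per kb).

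The other enzymes of the elongation cycle were mixed. Of the 8 genes listed, Elovl4 and Tecrl had too few reads to be tested. In DN:HOM, Hsd17b12, the ketoreductase, fell from 239 ± 25.4 to 111 ± 6.32 CPM (log2 fold change -1.09, adjusted p = 1.2e-11), and Tecr, the final reductase, from 152 ± 15.6 to 92.9 ± 10.3 CPM (-0.69, adjusted p = 3.7e-07). The dehydratases Hacd2 and Hacd3 had log2 differences of 0.05 and 0.09 (adjusted p = 0.55 and 0.25), and Hacd4 rose from 2.14 ± 0.307 to 7.56 ± 0.750 CPM (1.83, adjusted p = 7.0e-07). In KO:HOM, Tecr fell (-0.47, adjusted p = 0.00054) and Hacd4 rose (1.11, adjusted p = 0.0034), while Hsd17b12 was at 210 ± 54.2 and 180 ± 16.6 CPM (-0.23, adjusted p = 0.10). Over the 6 tested partners the median log2 fold change was 0.07 in DN:HOM and -0.16 in KO:HOM.

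The listed desaturases, made up of Scd, Fads and Degs genes, were mixed. In DN:HOM 6 of 10 fell and 3 rose (median -0.82), beside 30% of all genes tested lower and 29.1% higher. Scd1, the stearoyl-CoA desaturase, was at 39369 ± 8617 CPM in DN:WT and 759 ± 243 CPM in DN:HOM (log2 fold change -5.68, adjusted p = 4.4e-13), and its relative Scd2 rose from 9.13 ± 1.98 to 32 ± 3.09 CPM (1.82, adjusted p = 2.1e-06). Fads1 and Fads2, which desaturate the polyunsaturated substrates of Elovl5 and Elovl2, fell by 1.13 and 1.49 on the log2 scale (adjusted p = 0.00046 and 3.5e-06). In KO:HOM 4 of 10 fell and 0 rose (median -0.69), beside 7.87% of all genes lower and 11.5% higher. Fads1 was at -1.33, Fads2 at -0.85 and Scd1 at -1.42 there (adjusted p = 0.00021, 0.0082 and 0.0066). The Scd1 call ended with all 48 livers (adjusted p = 0.19). The homozygous effect differed between the studies for Scd1 (-4.26, adjusted p = 1.8e-07), a call that ended with all 48 livers (-1.12, adjusted p = 0.48). For Fads1 the difference of 0.19 did not pass (adjusted p = 0.73).

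Genes of fatty acid synthesis, which supply palmitate to Elovl6, fell in both studies. The counts that follow stand beside 30% of all genes tested lower and 29.1% higher in DN:HOM, and 7.87% and 11.5% in KO:HOM. In DN:HOM 10 of 10 were lower (median -2.58), with Fasn, the fatty acid synthase, at 1896 ± 956 CPM in DN:WT and 60.6 ± 11.9 CPM in DN:HOM (log2 fold change -4.95, adjusted p = 1.8e-11). In KO:HOM 10 of 10 were lower (median -1.15), with Fasn at -1.58 (adjusted p = 0.0037), and 6 of 10 remained past the threshold with all 48 livers. Of the lipogenic regulators 8 of 10 fell in DN:HOM (median -0.96) and 5 of 10 in KO:HOM (median -0.26, 3 of 10 with all 48 livers). The list includes Nr1h3 itself, at -0.32 on the log2 scale in DN:HOM and -1.80 in KO:HOM. Nr1h3 is the gene that the knockout allele disrupts, so its KO:HOM call was fixed in advance. Srebf1 fell by 3.18 on the log2 scale in DN:HOM (adjusted p = 1.3e-16) and by 0.71 in KO:HOM (adjusted p = 0.0035). Mlxipl, which encodes the glucose-responsive factor ChREBP, fell by 1.33 and by 0.41 (adjusted p = 1.2e-12 and 0.0058). With all 48 livers the KO:HOM calls on Fasn (adjusted p = 0.097), Srebf1 (0.20) and Mlxipl (0.10) ended. Ceramide synthases, which join fatty acids to sphingoid bases, were mixed in DN:HOM. Cers2 fell by 0.70 on the log2 scale, Cers5 and Cers6 rose (adjusted p = 0.056 for Cers6 with all 48 livers), and the median over 4 tested genes was 0.32. In KO:HOM 0 of the 4 passed by edgeR (median 0.23).

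**Figure D5:**
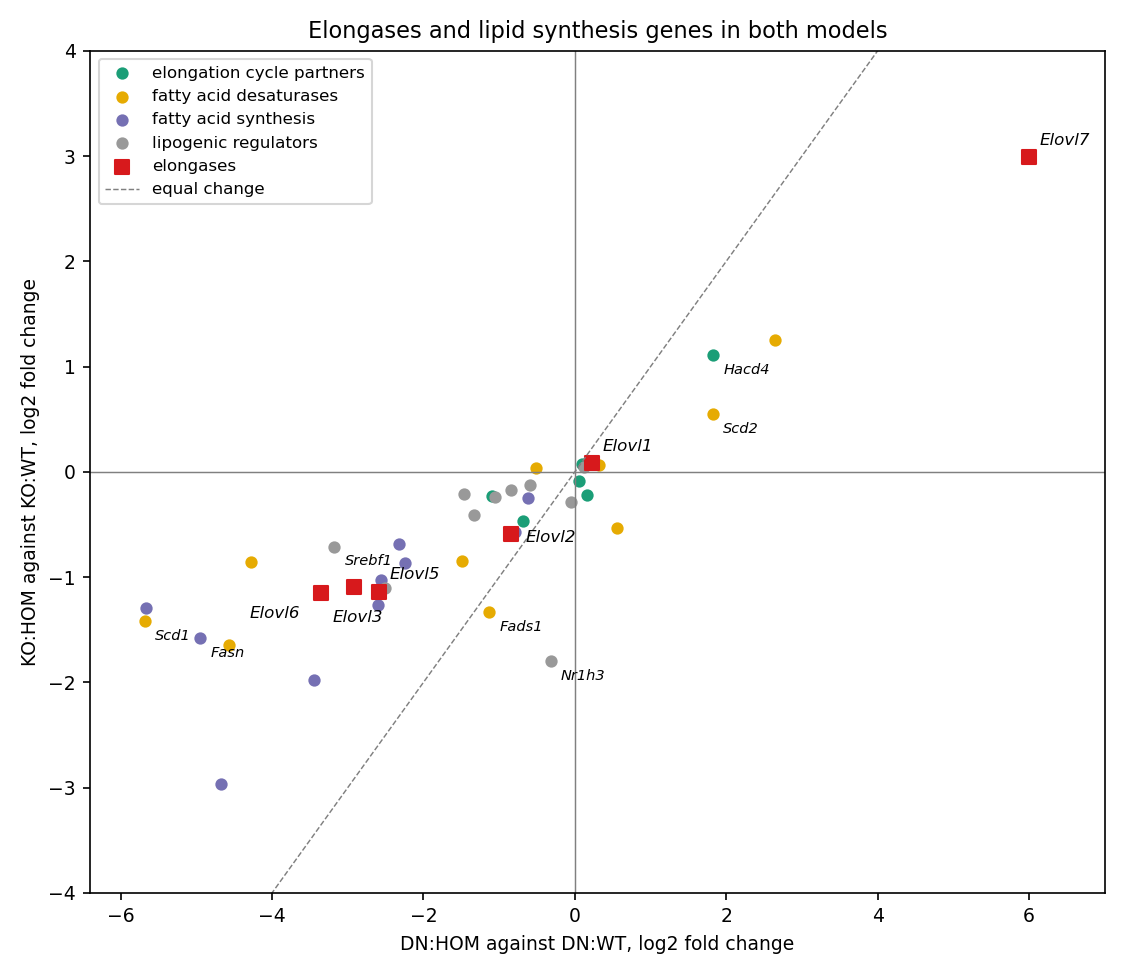
Log2 fold change in KO:HOM against KO:WT (vertical) plotted against that in DN:HOM against DN:WT (horizontal), each point 1 gene; red squares are the elongases, other colours the lists named in the key, and the dashed line marks equal change. Elovl6, Elovl3 and Elovl5 lie at -3.36 to -2.59 in DN and -1.15 to -1.09 in KO among the genes of fatty acid synthesis, and Elovl7 lies apart at 6.00 and 2.99.

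Within groups other than DN:HOM, Elovl5 and Elovl6 varied together from liver to liver. In DN:HOM, animal 31 was highest in Elovl5 (346 CPM) with 17.3 CPM of Elovl6. Animal 18 was highest in Elovl6 there (26.8 CPM) with 258 CPM of Elovl5. In KO:WT, animals 34 and 23 were highest in both (1948 and 2121 CPM of Elovl5, 368 and 394 CPM of Elovl6), and these livers had 6269 and 5960 CPM of summed fatty acid synthesis genes. KO:WT animal 14 was lowest in Elovl6 (86.4 CPM) and in the synthesis genes (1658 CPM), and animal 31 was lowest in Elovl5 (190 CPM). Elovl5 spread more in KO:WT than in any other group, with its highest liver 11.2 times its lowest, beside 1.93 times in DN:WT and in DN:HOM. The coefficient of variation of Elovl1 was 7.70 to 18.9% in the 6 groups, and that of Elovl6 was 18.3 to 59.5%.

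As a description, log2 CPM centred on each group's mean was correlated between genes over the 46 livers, which share their library depth and scaling. Pearson's r was 0.81 for Elovl5 with Elovl6, 0.51 for Elovl2 with Elovl5 and 0.09 for Elovl3 with Elovl6, and over all 48 livers it was 0.87, 0.66 and 0.48. Among 11710 genes with a mean log2 CPM above 1, those most like Elovl6 included Acly (0.93), Acaca (0.92), Fasn (0.89) and Acsl5 (0.86). Those most like Elovl5 were Scd1 (0.95), Acsl5 (0.94), Cyb5r3 (0.88), Ugt1a5 (0.88) and Hmgcs1 (0.86). Elovl2 was most like Cpn1 (0.73), Fads2 (0.72), Kif21a (0.70), Uox (0.67) and Gabbr2 (0.67). Elovl3 was most like Clpx (0.76), Tars1 (0.75), Kynu (0.74), Nfil3 (0.73) and Hsph1 (0.71), and Elovl1 like Fkbp1a (0.78), Ywhah (0.77), Nudt18 (0.74), Ccdc120 (0.73) and Myo1c (0.71). Exons of the Ugt1a genes are shared, so its counts are uncertain. Elovl7 was too low for this comparison. The 5 genes for Elovl2, Elovl5 and Elovl6 were the same 5 with all 48 livers, whereas 3 of 5 were shared for Elovl1 and 2 of 5 for Elovl3.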

How the data were processed

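Liver polyA RNA of 48 mice was sequenced with strand-specific libraries. The authors aligned reads with STAR 2.5.0a to GRCm39, per the labels, and deposited raw counts of reads per gene for both strands and for each strand. The reverse-strand counts were used, which were 6.97 to 8.62 times the forward-strand counts, and 24.0 to 35.0% of reads named no gene and were left out. Of 55416 gene identifiers, 54749 had an entry in the GENCODE annotation, which gave symbols and lengths. Genotypes came from the labels, 8 livers per group. DN:WT animal 10 and DN:HOM animal 12 were absent from the study's source values for 7 genes, by a match of those values to the counts of 4 of the genes. They were left out of the main values, and each comparison was repeated with all 48 livers. No pair of livers held identical counts. Each liver came from a separate mouse.

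The main test was that of edgeR 4.0.16, run in R 4.3.3 (filterByExpr, TMM, quasi-likelihood F test, a model of 6 group means), adjusted by Benjamini-Hochberg over all 15711 genes tested, with a threshold of 0.05 and intervals of the log2 difference at 95%. The model was tested on simulated data. CPM values were scaled by TMM over all 48 livers, and log2 CPM used a prior count of 2. Levels per kb used the union of exons. Alternatives were DESeq2 1.42.0, 2 other scalings, 2 other filters, unstranded counts, each study or the compared groups alone, and leaving out the 2 shallow livers. The genes named were the 6 elongases, Nr1h3, genes that overlap an elongase, genes of the lists and, for each elongase, the 5 other genes with the highest r. For Elovl6, 1 of these 5 is not reported here. The lists were elongation cycle partners, desaturases, fatty acid synthesis, lipogenic regulators, ceramide synthases, clock genes, and markers of hepatocytes, macrophages, B cells, T cells, neutrophils, stellate cells, cholangiocytes, endothelium, adipocyte-type genes and sex. The members and lists were chosen with earlier results of these data known. Sequences were copied from RefSeq windows. Python 3.11.15, pandas 2.3.3 and matplotlib 3.10.9 were used.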

Additional observations from a re-analysis of the deposited data

Results flagged for a closer look

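In groups of 7 or 8 livers, each elongase was checked for 1 liver far from the rest by Dixon's test, which flags about 1 group in 20 by chance; 7 of 48 groups had such a liver. DN:HOM animal 12 was the highest of the 8 DN:HOM livers for Elovl2 (791 CPM), Elovl3 (335 CPM), Elovl5 (2041 CPM) and Elovl6 (202 CPM). DN:WT animal 10 was the highest of the 8 DN:WT livers for Elovl7 (15.9 CPM). KO:HOM animal 30 stood above the other KO:HOM livers for Elovl2 (685 CPM), and KO:WT animal 23 above the other KO:WT livers for Elovl7 (0.586 CPM, 9 reads).

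The homozygous effect differed between the DN and KO studies by the test of the difference itself for Elovl3 (-1.83 on the log2 scale), Elovl5 (-1.45), Elovl6 (-2.21) and Elovl7 (3.01). All 4 calls ended with all 48 livers, at -0.77, -0.47, -1.04 and -0.51 (edgeR adjusted p = 0.47, 0.65, 0.30 and 0.81), and the Elovl7 difference turned. Site, study and allele cannot be told apart in these differences.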

How the results depend on the processing

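Of the fold changes of single elongases, 0 reversed or lost a call with DESeq2, with a mean CPM of at least 1 as the filter or with unstranded counts. With all 48 livers, calls in KO:HOM against KO:WT went from 3048 to 2016 genes and from 5 to 2 elongases, in DN:HET from 361 to 39 genes, in KO:HOM against KO:HET from 1663 to 737 genes and from 2 to 0 elongases, and in the difference between alleles from 5456 to 1636 genes and from 4 to 0 elongases. DESeq2 called 617 genes in DN:HET and 10 in KO:HET, where edgeR called 3. With each study alone DN:HET had 239 calls, and 3 elongases passed in KO:HOM against KO:WT and 0 in KO:HOM against KO:HET. Elovl7 did not pass the filter in the KO study alone or in the pairs of groups other than those with DN:HOM, and so was not tested there. With the compared groups alone DN:HET had 5 calls and KO:HET 1, and 3 elongases passed in KO:HOM against KO:WT, 1 in KO:HOM against KO:HET and 1 in KO:WT against DN:WT. Without the low-count filter KO:HET had 8 calls, and 1 elongase passed in KO:HOM against KO:HET and 1 in KO:WT against DN:WT. In KO:HOM against KO:HET, 1 elongase passed with library size alone and 1 without the 2 shallow livers.

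The direction turned for Elovl1 in DN:HET (0.04 with library size alone), Elovl7 in DN:HET (-1.80 with all 48 livers), Elovl2 in KO:WT against DN:WT (-0.01 with upper-quartile scaling, -0.04 with library size alone), Elovl6 there (0.03 with all 48 livers), Elovl2 in the difference between alleles (0.06 with library size alone) and Elovl7 in that difference (-0.51 with all 48 livers). The cause was not tested. Elovl7 in KO:WT against DN:WT passed with all 48 livers (-3.47, adjusted p = 0.0091), in which DN:WT includes animal 10. With library size alone the share of calls that were higher was 83.7% in DN:HOM against DN:HET (48.3% with TMM), 88.8% in KO:HOM against KO:HET (68.4%), 81.6% in the difference (47.4%) and 37.9% in KO:WT against DN:WT (53.8%). The longest transcript as length scales each gene's level per kb by 1 factor in every group, and the shift exceeded the SD of the group for Elovl5 in all 6 groups and for Elovl1 and Elovl6 in DN:HOM. No paired or blocked analysis was run. Animal numbers are unique within a study, and the groups compared share no animal. The paper says that its mouse characterisation was split into cohorts, but the labels used here name no cohort or litter. Depth limits Elovl7, which had at most 9 reads in any wild-type liver of the 46.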
